A study of Homo sapiens with 72 samples.

Results

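The nuclear genes of the respiratory chain were followed in PEO1 cells, an established line of high-grade serous ovarian cancer, exposed to the PARP inhibitor rucaparib. Members were the protein-coding nuclear genes named NDUFA, NDUFB, NDUFC, NDUFS or NDUFV with a number, SDHA to SDHD, and those beginning with UQCR, COX4I, COX5, COX6, COX7, COX8, ATP5F1, ATP5M or ATP5P. The rule used names only and gave 86 of the 56269 genes with a transcript in the files. After a filter on low counts, 79 members stood among 20131 tested genes, and the other 7 were at or near 0 in every group.

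PEO1 cells received 8.5 µM rucaparib or DMSO for 2 or 24 h. Rucaparib is fluorescent, so treated cells could be sorted by drug content into the brightest 20% (Ruc-High) and the dimmest 20% (Ruc-Low), while Ruc-Total is the unsorted treated population and Vehicle the unsorted DMSO control. Each of the 8 groups had 3 replicates of 3 libraries, 72 in all, and the 3 libraries of a replicate were summed to give 24 samples. Cells of both gates went through a cell sorter in suspension, but unsorted cells were lysed from the dish with a scraper, so the gates and the handling cannot be told apart wherever sorted cells are set against unsorted ones. All groups came from 1 cell line, and where nothing places replicates in separate cultures the p-values measure the spread between these samples.

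Oxidative phosphorylation runs through 5 complexes of the inner mitochondrial membrane. Complex I (NADH dehydrogenase) and complex II (succinate dehydrogenase, also an enzyme of the citric acid cycle) pass electrons to ubiquinone, complex III hands them to cytochrome c, and complex IV (cytochrome c oxidase) reduces oxygen. Complex V, the ATP synthase, uses the proton gradient that complexes I, III and IV build. Most subunits are encoded in the nucleus and imported, while a small core of complexes I, III, IV and V is encoded by the mitochondrial genome, so the complexes draw on both genomes.

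Library totals were 17391033 to 38899905 estimated reads (median 33431403.5), of which 0.714% to 1.86% lay on the members (median 0.958%). The epithelial and serous markers EPCAM, KRT18 and PAX8 had medians of 327, 2675 and 52.6 TPM (transcript abundance scaled to transcript length and library size), whereas PTPRC and DCN, which mark leukocytes and fibroblasts, had medians of 0.00387 and 0 TPM. The serous markers WT1 and MUC16 were lower, at 16.7 and 10.9 TPM. The leukocyte marker CD68 had a median of 10.5 TPM and the fibroblast marker COL1A1 1.65 TPM, while CD3E and LUM had 0 TPM. The mean length of the transcript to which a read was assigned ran from 2255 to 3299 bases between libraries, and this bears on the members, since 59 of the 79 were shorter than 1000 bases (74.7%) against 22.4% of all tested genes. One Ruc-Low library of 2 h (replicate 2, library 2) stood apart, with the fewest reads, 32241 genes detected against a median of 22048 over all libraries, and a mean length of 2351 bases. A Vehicle library of 2 h (replicate 1, library 1) had 22092472 reads, and the results are given with and without both libraries where the count of members moved by more than 1.5 times.

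The nuclear subunits were abundant. TPM corrects for length and allows genes to be compared, and the mean TPM over the 8 groups had a median of 172 among the tested members. By complex the medians were 142 TPM in complex I, 147 TPM in complex II, 125 TPM in complex III, 360.4 TPM in complex IV and 266 TPM in complex V. The highest members were COX7C (972 TPM), a small subunit of complex IV, ATP5MG (875 TPM), subunit g of the ATP synthase, ATP5PD (848 TPM), in its peripheral stalk, UQCRH (844 TPM), the hinge protein of complex III, and NDUFC2 (789 TPM), an accessory subunit of complex I. Among the lowest tested members were NDUFS3 (1.45 TPM), ATP5MF-PTCD1 (4.02 TPM), NDUFB3 (8.71 TPM) and NDUFV3 (11.3 TPM). These low levels carry a limit of annotation, because no coding transcript of NDUFS3 was listed in the files and ATP5MF-PTCD1 is a readthrough of adjacent genes. The high level of ATP5MG carries a limit too, since only 1.78% of its reads lay on coding transcripts.

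Complex IV showed which of its tissue isoforms these cells used. COX4I1 had 393 TPM against 0.0107 TPM for COX4I2, COX6A1 had 360.4 TPM against 0.00289 TPM for the muscle isoform COX6A2, and COX6B1 had 691 TPM against 0.0299 TPM for the testis isoform COX6B2. COX7A2 had 172 TPM and COX7A2L, a factor of supercomplex assembly, 102 TPM, whereas the muscle isoform COX7A1 had 0.0349 TPM. COX7B and COX8A had 261 and 310.2 TPM, and their paralogues COX7B2 and COX8C had 0 and 0.0216 TPM. The broadly expressed isoforms were the ones detected, and the tissue-restricted ones were close to 0. All 3 genes of subunit c of the ATP synthase, which encode the same mature protein, were detected, with 105 TPM for ATP5MC1, 164 TPM for ATP5MC2 and 255 TPM for ATP5MC3. UQCRH and its near copy UQCRHL (48.9 TPM) share sequence, so the split of reads between them is uncertain, and SDHA has pseudogene copies that leave the same doubt.

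The members also varied in how completely their transcripts were listed. For 14 of them less than 50% of the reads lay on coding or alternate-locus transcripts. Among them were ATP5MG (1.78% on coding transcripts), ATP5PB (1.52%), COX7A2L (17.5%) and NDUFA4 (41.9%). NDUFS1 and NDUFA6 were counted only on alternate-locus copies (100% of their reads). The values of these genes hold for the transcripts listed.

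The promoter sequences show motifs of factors known to act on respiratory genes. NRF1 and the ETS factor GABP (NRF2) are known activators of many nuclear respiratory genes, and YY1 is a further factor named with them. The 250 bases before the start were available for 66 of the 86 members from RefSeq (GRCh38.p14) and were searched on both strands for GCATGCGC (NRF1), CCGGAAGT (ETS) and AAGATGGCG (YY1). NRF1 letters were present in 12 of 66 members (18.2%) against 2.81% of all 27305 promoters of that length, ETS letters in 9 (13.6%) against 3.64%, and YY1 letters in 1 (1.52%) against 0.641%. At least 1 of the 3 was present in 19 members (28.8%) against 6.75% of all promoters. The 3 promoters printed here are the ones with a motif among the members that were lower in sorted cells at both times, described after them, with the motifs in capitals. SDHD lies on chr11:112086623-112086872 of the plus strand, and its 2 NRF1 matches, at 110 and 108 bases before the start, overlap on the 2 strands, with the ETS match at 78 bases. NDUFA6 lies on chr22:42090773-42091022 of the minus strand with an NRF1 match at 166 bases. COX8A lies on chr11:63974370-63974619 of the plus strand with an ETS match at 19 bases. Starts are those of RefSeq, which can differ from the GENCODE gene bounds given with the values.
SDHD: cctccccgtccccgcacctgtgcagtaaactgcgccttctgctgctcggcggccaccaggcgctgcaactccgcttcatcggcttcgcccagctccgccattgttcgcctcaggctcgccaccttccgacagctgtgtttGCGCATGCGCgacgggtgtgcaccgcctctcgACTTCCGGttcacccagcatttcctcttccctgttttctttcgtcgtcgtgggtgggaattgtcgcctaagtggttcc
NDUFA6: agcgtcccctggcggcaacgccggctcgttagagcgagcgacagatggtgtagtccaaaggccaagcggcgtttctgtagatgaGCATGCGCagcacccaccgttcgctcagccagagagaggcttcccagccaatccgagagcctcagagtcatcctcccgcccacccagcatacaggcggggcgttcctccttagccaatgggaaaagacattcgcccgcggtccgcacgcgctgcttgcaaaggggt
COX8A: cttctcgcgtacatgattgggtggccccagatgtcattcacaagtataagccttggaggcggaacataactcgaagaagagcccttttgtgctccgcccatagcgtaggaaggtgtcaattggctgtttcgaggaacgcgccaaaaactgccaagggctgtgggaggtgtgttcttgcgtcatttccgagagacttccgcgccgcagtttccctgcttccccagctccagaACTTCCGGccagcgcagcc
A match is a description of letters, not a bound site. Of the 28 members with a promoter that were lower in sorted cells at either time, 4 held a motif (14.3%).

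Nuclear subunits passed the test in the contrast of sorted with unsorted treated cells, and all of them were lower. After 24 h, 23 of 79 members were lower and 0 were higher in sorted cells (Ruc-High and Ruc-Low together, 6 samples) than in Ruc-Total (3 samples) by edgeR's quasi-likelihood test at a Benjamini-Hochberg adjusted p of 0.05 over all genes. Of all 20131 genes, 5.14% were lower, against 29.1% of the members. The median log2 fold change of the members was -0.52 and 74 of 79 lay below 0, while over all genes tested it was 0.01. Members under 1000 bases were lower in 18 of 59 cases (30.5%, against 6.85% of all such genes), and members of at least 50 CPM (counts scaled to library size, on average over the samples) in 21 of 62 cases (33.9%, against 14.3%). With the replicate number as a block, 60 members were lower (75.9%, against 13.9% of all genes). Values with the block assume that same-numbered samples belong together, which the sources do not state for these libraries.

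At 24 h every complex had members lower in sorted cells than in Ruc-Total, and complex II had 3 of its 4. A fall here is a difference from Ruc-Total, and the contrast does not show which group moved. SDHA, the flavoprotein that oxidises succinate, had 256, 289 and 265 CPM in Ruc-High and 239, 289 and 293 CPM in Ruc-Low, against 413, 405 and 308 CPM in Ruc-Total. All 6 sorted samples lay below all 3 Ruc-Total ones, with a log2 fold change of -0.47 ± 0.10 (SE) and an adjusted p of 0.0118. In Vehicle at 24 h SDHA had 283, 292 and 290 CPM, within the range of the sorted samples. SDHC, a membrane anchor of the same enzyme, had 107, 119 and 105 CPM in Ruc-High and 95.5, 115 and 114 CPM in Ruc-Low, against 157, 159.6 and 120.2 CPM in Ruc-Total (log2 fold change -0.41 ± 0.10, adjusted p = 0.0153). SDHD, the other anchor, fell less, with a log2 fold change of -0.24 ± 0.07 (adjusted p = 0.0395), and SDHB, the iron-sulphur subunit, had -0.52 ± 0.17 and missed the threshold at 0.0584, but passed with the block at 0.00695.

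In complex I, 8 of 37 members were lower at 24 h and none of them belonged to the 7 core subunits. NDUFB7, an accessory subunit, had the largest fall among them, with 145.5, 157 and 107 CPM in Ruc-High and 121, 150.0 and 126 CPM in Ruc-Low, against 319.5, 303 and 149 CPM in Ruc-Total. Replicate 3 of Ruc-Total lay among the sorted samples, and the log2 fold change was -0.94 ± 0.27 (adjusted p = 0.0364). NDUFA9, which binds NADPH at the junction of the arms, had 56.7, 60.6 and 54.5 CPM in Ruc-High and 62.1, 57.3 and 66.2 CPM in Ruc-Low, against 99.3, 98.4 and 67.1 CPM in Ruc-Total (log2 fold change -0.57 ± 0.13, adjusted p = 0.0135). Its groups did not overlap, though the gap to replicate 3 of Ruc-Total was narrow. NDUFA1, NDUFA11, NDUFB2 and NDUFA8 had log2 fold changes of -0.70, -0.69, -0.66 and -0.56 (adjusted p 0.0274 to 0.0317). Of the core, NDUFV1 and NDUFS1 had -0.57 and -0.16, with adjusted p of 0.153 and 0.199, and with the block both passed (0.033 and 0.0152).

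Complex III had 1 member lower of 9. UQCRC1, a core protein of the matrix face, had 121, 125 and 118 CPM in Ruc-High and 114, 134 and 133 CPM in Ruc-Low, against 167, 184 and 141 CPM in Ruc-Total. The groups did not overlap, with a log2 fold change of -0.40 ± 0.09 (adjusted p = 0.0114). UQCRFS1, the Rieske iron-sulphur protein, had -0.48 ± 0.17 (adjusted p = 0.084, and 0.0167 with the block).

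Complexes IV and V had 4 of 11 and 7 of 18 members lower at 24 h. COX4I1, the regulatory subunit that binds ATP, had 192, 230.4 and 158 CPM in Ruc-High and 177, 218.5 and 196 CPM in Ruc-Low, against 333, 373 and 200.8 CPM in Ruc-Total (log2 fold change -0.63 ± 0.19, adjusted p = 0.0433). Replicate 3 of Ruc-Total lay within the sorted range. COX6A1 had a log2 fold change of -0.65 (adjusted p = 0.0329), and COX5A and COX5B had -0.18 and -0.59 with adjusted p of 0.461 and 0.0539. ATP5F1A, the alpha subunit of the catalytic F1 head, had 583, 657 and 607 CPM in Ruc-High and 567, 655 and 660.3 CPM in Ruc-Low, against 880.2, 867 and 695 CPM in Ruc-Total (log2 fold change -0.39 ± 0.09, adjusted p = 0.0134), with no overlap. The catalytic beta subunit ATP5F1B had -0.26 ± 0.09 and missed the threshold at 0.0618. ATP5MG, ATP5F1E and ATP5MC3 had larger falls of -0.84, -0.75 and -0.58 on the log2 scale (adjusted p 0.0472, 0.0383 and 0.0281), each with overlapping groups.

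The 24 h result differed between replicates. The median difference of the 79 members was -0.72, -0.63 and -0.10 on the log2 scale in replicates 1, 2 and 3. The mean transcript length moved with it, at 3058, 2995 and 3068 bases in sorted cells against 2746, 2711 and 3230 bases in Ruc-Total. Without replicate 3 the test called 58 members, and without replicate 1 or replicate 2 it called 0. Leaving out the 18 libraries under 2800 bases, in a fit with the block, 53 members were called with a median of -0.31. With the 2 shallow libraries left out, 42 members were called, and in a fit of only the 3 groups compared, 0 were.

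After 2 h, 17 of 79 members were lower and 0 higher in sorted cells than in Ruc-Total (21.5%, against 1.17% of all genes). The median log2 fold change of the members was -0.42 with 74 of 79 below 0, against -0.01 over all genes. Among members under 1000 bases 14 of 59 were lower (23.7%, against 2.08%) and among those of at least 50 CPM 12 of 62 (19.4%, against 3.44%). With the block, 50 were lower (63.3%, against 8.31% of all genes). By complex, the 17 comprised 7 in complex I, 1 in complex II, 1 in complex III, 5 in complex IV and 3 in complex V.

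Complex IV had the largest falls at 2 h. COX7B, a small nuclear subunit, had 91.2, 84.6 and 70.9 CPM in Ruc-High and 87.2, 77.5 and 70.7 CPM in Ruc-Low, against 155, 117 and 135 CPM in Ruc-Total. The groups did not overlap, with a log2 fold change of -0.76 ± 0.15 (adjusted p = 0.0166). COX7C, the most abundant member, had 279.7, 269 and 219 CPM in Ruc-High and 247, 251 and 228 CPM in Ruc-Low, against 421, 337 and 383 CPM in Ruc-Total (log2 fold change -0.61 ± 0.13, adjusted p = 0.0237). COX5A fell by 0.56 on the log2 scale (adjusted p = 0.0416), whereas COX4I1 and COX5B had -0.39 and -0.49 and did not pass (0.289 and 0.168, but 0.0446 and 0.0148 with the block). In complex I, NDUFV2, a core subunit with an iron-sulphur cluster, had 66.99, 76.0 and 68.4 CPM in Ruc-High and 65.3, 67.6 and 68.7 CPM in Ruc-Low, against 104, 91.5 and 103 CPM in Ruc-Total (log2 fold change -0.54 ± 0.14, adjusted p = 0.0444). NDUFS4, an accessory subunit whose loss is a known cause of Leigh syndrome, fell by 0.52 (adjusted p = 0.0318). SDHA and SDHB, with -0.17 and -0.26, and ATP5F1A and ATP5F1B, with -0.25 and -0.28, did not pass at 2 h (adjusted p 0.094 to 0.465).

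The 2 h calls depended on the libraries. The median difference was -0.40, -0.18 and -0.67 in replicates 1, 2 and 3, where sorted cells had mean lengths of 2824, 2870 and 3094 bases against 2758, 2982 and 2890 bases in Ruc-Total. The test called 2, 0 and 0 members without replicates 1, 2 and 3, and in libraries of at least 2800 bases with the block it called 4, with a median of -0.05.

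At both times, 9 members were lower in sorted cells, and 31 were lower at either time. Of all genes, 1.17% were lower at 2 h and 5.14% at 24 h. The shares of all genes lower at both or at either time were not counted. The 9 were NDUFA4 and NDUFA6, filed by their symbols under complex I although NDUFA4 protein is now placed in complex IV, SDHD of complex II, UQCRC1 of complex III, COX6B1 and COX8A of complex IV, and ATP5MC1, ATP5PB and ATP5PO of complex V. ATP5PB and ATP5PO belong to the peripheral stalk, which holds the F1 head still, and ATP5MC1 encodes the rotating c ring. No sample was shared between the times, but the difference in handling between sorted and unsorted cells was.

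SDHD (chr11:112086773-112120013, GRCh38) had 97.9, 87.3 and 91.8 CPM in Ruc-High and 93.7, 88.9 and 95.1 CPM in Ruc-Low at 2 h, against 122.6, 112 and 122 CPM in Ruc-Total. At 24 h it had 80.3, 83.9 and 84.4 CPM in Ruc-High and 79.3, 87.7 and 94.7 CPM in Ruc-Low, against 104, 106 and 91.8 CPM in Ruc-Total. The groups were apart at 2 h (log2 fold change -0.36 ± 0.07, adjusted p = 0.016) and overlapped at 24 h. UQCRC1 (chr3:48599002-48610976) at 2 h had 155, 141.5 and 122.6 CPM in Ruc-High and 139, 146 and 127 CPM in Ruc-Low, against 179, 173 and 178 CPM in Ruc-Total (log2 fold change -0.35 ± 0.09, adjusted p = 0.0458). It was apart from the Ruc-Total samples at both times.

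NDUFA6 (chr22:42085525-42090955), an accessory subunit, had 38.1, 38.4 and 37.7 CPM in Ruc-High and 40.3, 39.8 and 45.6 CPM in Ruc-Low at 24 h, against 54.2, 63.5 and 43.9 CPM in Ruc-Total (log2 fold change -0.43 ± 0.11, adjusted p = 0.0218), and 1 Ruc-Low sample lay above the lowest Ruc-Total sample. At 2 h it had 49.1, 46.2 and 41.4 CPM in Ruc-High and 48.04, 45.6 and 41.7 CPM in Ruc-Low, against 66.8, 62.3 and 64.95 CPM in Ruc-Total, with no overlap (log2 fold change -0.51 ± 0.11, adjusted p = 0.0217). COX8A (chr11:63974607-63976543), a small subunit of complex IV, had 112, 109.7 and 97.1 CPM in Ruc-High and 106, 116.5 and 103 CPM in Ruc-Low at 2 h, against 149.6, 142 and 162 CPM in Ruc-Total (log2 fold change -0.49 ± 0.11, adjusted p = 0.024). At 24 h it was lower in 2 of 3 replicates, as was ATP5MC1, with log2 fold changes of -0.38 and -0.39 (adjusted p 0.0374 and 0.0373).

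ATP5PB (chr1:111448864-111462773) had 199, 207 and 192 CPM in Ruc-High and 201, 207.5 and 214 CPM in Ruc-Low at 24 h, against 301, 311 and 223 CPM in Ruc-Total (log2 fold change -0.45 ± 0.11, adjusted p = 0.0198). The sorted samples were close to each other and below every Ruc-Total sample. Its log2 fold change at 2 h was -0.50 ± 0.11 (adjusted p = 0.0264). ATP5PO (chr21:33903453-33915980) had 65.6, 64.999 and 51.8 CPM in Ruc-High and 63.4, 57.6 and 53.7 CPM in Ruc-Low at 2 h, against 103, 79.5 and 92.4 CPM in Ruc-Total, also without overlap (log2 fold change -0.62 ± 0.14, adjusted p = 0.0239). NDUFA4 and COX6B1 had log2 fold changes of -0.51 and -0.53 at 2 h (adjusted p 0.00804 and 0.0222) and of -0.39 and -0.38 at 24 h (adjusted p 0.0132 and 0.0455).

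**Figure D1:**
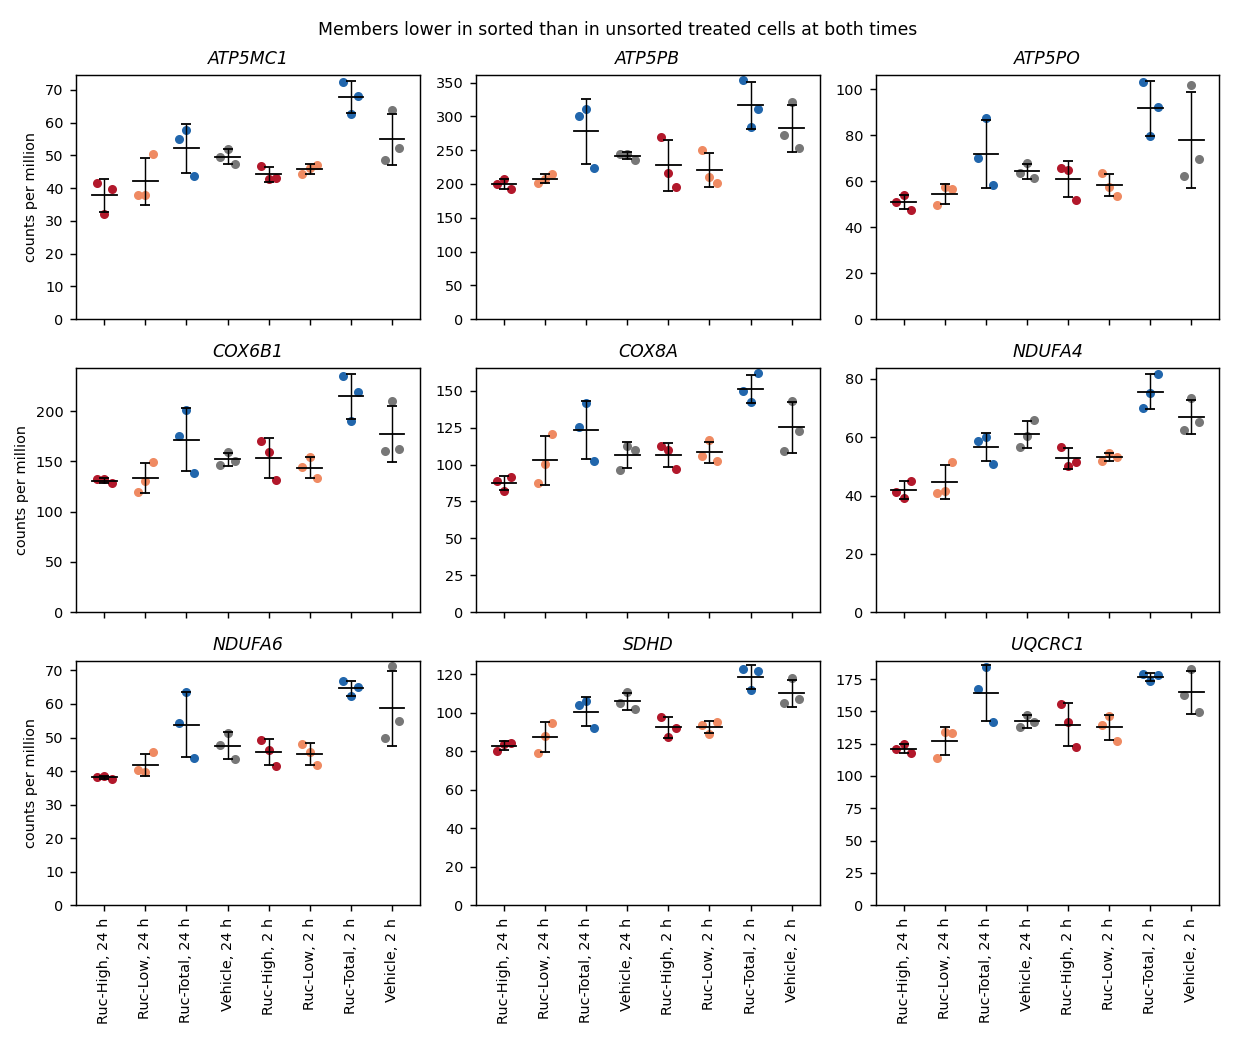
CPM (vertical axis) of the 9 members that were lower in sorted than in unsorted treated cells at both times, by group along the horizontal axis, with points for replicates 1 to 3 from left to right and lines for the mean ± SD (n = 3). The Ruc-High and Ruc-Low points of UQCRC1 lie at 114 to 134 at 24 h, below the 3 Ruc-Total points at 141 to 184.

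Between unsorted treated and control cells no member passed the threshold in the fit without the block. At 24 h, 0 of 79 members differed between Ruc-Total and Vehicle (3.35% of all genes did), and DESeq2 called 5. An unadjusted p under 0.05 was found for 35 members, and for 4935 of all 20131 genes. The median log2 fold change was 0.35, with 66 of 79 members above 0. The highest was NDUFB3, an accessory subunit of complex I, with 6.39, 3.81 and 3.32 CPM in Ruc-Total, against 0.682, 1.28 and 1.70 CPM in Vehicle. Its groups did not overlap, but the level was low and the log2 fold change of 1.88 ± 0.65 did not pass (adjusted p = 0.0997). The lowest was NDUFA5, an accessory subunit of the matrix arm, with 12.97, 23.2 and 25.4 CPM in Ruc-Total, against 34.2, 33.7 and 28.4 CPM in Vehicle (log2 fold change -0.65 ± 0.21, adjusted p = 0.0844).

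With the replicate block, 25 members were higher and 2 lower in Ruc-Total than in Vehicle at 24 h, where 24% of all genes were called. Those higher with the block included COX4I1 (log2 fold change 0.58, adjusted p = 0.0158), NDUFV1 (0.71, 0.018), SDHA (0.37, 0.0223) and SDHB (0.41, 0.0409), and the lower ones were NDUFA5 (-0.68, 0.0151) and UQCRC2 (-0.38, 0.0223), the partner of UQCRC1 in the core. NDUFV1, which holds the NADH site, had 708, 660.0 and 347 CPM in Ruc-Total, against 366, 343 and 303 CPM in Vehicle. Its replicate 3 was much closer to Vehicle than the others, and the medians of all members were 0.54, 0.48 and -0.005 in replicates 1, 2 and 3. The mean lengths were 2746, 2711 and 3230 bases in Ruc-Total, against 3120, 3107 and 3231 bases in Vehicle. With the block and the mean length in 1 fit, no member was higher and 1 was lower, NDUFA4, at -0.31 (adjusted p = 0.0369), with a median of -0.03 over the members.

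At 2 h, 0 of 79 members differed between Ruc-Total and Vehicle, where 0.0248% of all genes did, with 0 called by DESeq2. An unadjusted p under 0.05 was found for 9 members, and for 1316 of all 20131 genes. The median log2 fold change was 0.11, and the members ran from -1.40 (NDUFB3) to 0.51 (NDUFA5). NDUFA5 had 38.1, 30.7 and 34.9 CPM in Ruc-Total, against 16.3, 27.96 and 28.4 CPM in Vehicle. All 3 treated samples lay above the controls at 2 h and below them at 24 h. The medians of the members were 0.18, -0.26 and 0.43 in the 3 replicates, so they did not share a direction.

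Drug content within the treated population was the closest contrast in handling, since both gates were sorted, and no member passed the test. At 24 h, 0 of 79 members differed between Ruc-High and Ruc-Low, where 0.109% of all genes did, with 0 called by DESeq2. An unadjusted p under 0.05 was found for 0 members, and for 824 of all 20131 genes. The median log2 fold change was -0.06, with a median SE of 0.21 and a range from -0.23 (COX8A) to 0.11 (COX6C, a small subunit of complex IV). COX8A had 88.7, 82.0 and 91.8 CPM in Ruc-High, against 87.5, 100.5 and 120.5 CPM in Ruc-Low, and the groups overlapped. By replicate the medians were 0.10, -0.04 and -0.26. At 2 h, 0 members differed, where 0.00497% of all genes did, with 0 called by DESeq2. An unadjusted p under 0.05 was found for 0 members, and for 647 of all 20131 genes. The median was 0.03, and the lowest value was -0.997 (NDUFB3). That value exceeded its SE of 0.64 and did not pass, so differences larger than the SEs could also go undetected.

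**Figure D2:**
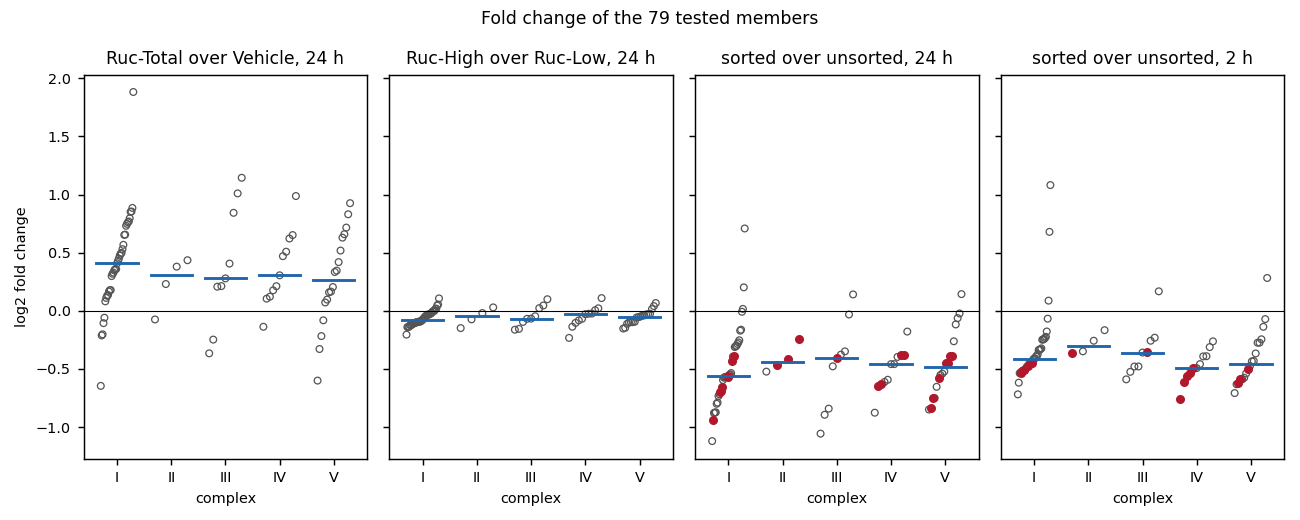
Log2 fold change (vertical axis) of the 79 tested members by complex (horizontal axis), in 4 contrasts from left to right. Filled red points passed the adjusted p of 0.05, open points did not, and blue lines mark the median of each complex. The 23 and 17 red points of the sorted contrasts at 24 h and 2 h all lie below 0, and the Ruc-High over Ruc-Low points keep between -0.23 and 0.11.

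Vehicle cells were unsorted at both times. Between 24 h and 2 h, 0 of 79 members differed, where 0.0248% of all genes did, and DESeq2 called 0. An unadjusted p under 0.05 was found for 38 members, and for 3507 of all 20131 genes. The median log2 fold change was -0.40, with 74 of 79 below 0. With the block 5 were lower and 0 higher (9.41% of all genes were called). These were COX7A2, NDUFA11, NDUFS6, ATP5MPL and SDHB, with log2 fold changes of -0.65, -0.62, -0.57, -0.55 and -0.50. SDHB had 62.3, 60.4 and 54.3 CPM at 24 h, against 102.5, 86.1 and 64.6 CPM at 2 h. The mean lengths of the Vehicle samples were 3120, 3107 and 3231 bases at 24 h, against 2729, 2747 and 3078 bases at 2 h. With the block and the mean length in 1 fit the median was 0.05.

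The difference between the drug effect at 24 h and at 2 h passed the threshold in 0 of 79 members (0.139% of all genes), with 2 called by DESeq2. An unadjusted p under 0.05 was found for 14 members, and for 4219 of all 20131 genes. With the block, 2 members were higher and 4 lower, where 18% of all genes were called. ATP5PD and NDUFB3 were higher, at 0.93 and 2.88 on the log2 scale, and NDUFA5, UQCRC2, ATP5PF and ATP5MF were lower, at -1.23, -0.67, -0.69 and -1.30. The medians of the members were 0.36, 0.81 and -0.46 in the 3 replicates, and the direction thus differed between them.

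The share of reads on the members followed the mean transcript length of a library. Over 72 libraries Pearson's r was -0.931 and Spearman's rho -0.848, and after taking out the group means r was -0.978. Within the 8 groups of 9 libraries, r ran from -0.889 to -0.996. Both measures come from the same reads, and short genes such as the members lower the mean by construction. Libraries of equal length can nevertheless be set side by side. Between 3000 and 3200 bases at 24 h, 11 sorted libraries had 0.714% to 0.883% of their reads on members (median 0.788%), against 0.94% in the 1 Ruc-Total library, and 6 Vehicle libraries had 0.903% to 1.025%. At 2 h, 9 sorted libraries had 0.766% to 0.944% (median 0.814%), against 0.924% to 1.03% in 4 Ruc-Total libraries, with 0.982% in the 1 Vehicle library. At 24 h the sorted range lay below the 1 Ruc-Total library and below the Vehicle range, and the 2 h ranges overlapped slightly. Libraries are not independent replicates, and an equal mean length does not make them alike otherwise. At 24 h mitochondrial reads were 0.347% to 5.17% of a library in Ruc-High and 0.672% to 5.57% in Ruc-Low. In Ruc-Total they were 0.138% to 0.645%. Across the 79 members, log2 length and the sorted log2 fold change had an r of 0.329 at 24 h and 0.356 at 2 h. Shorter members thus lay lower, and members are not independent replicates. Fits that took length into account gave differing counts of members called in sorted cells at 24 h and 2 h. With the block and the mean length they were 45 and 64, and with an effective length offset 12 and 3. Libraries of at least 2800 bases with the block gave 53 and 4. How far the length of the libraries contributed to the sorted contrast was not tested beyond these values and fits.

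**Figure D3:**
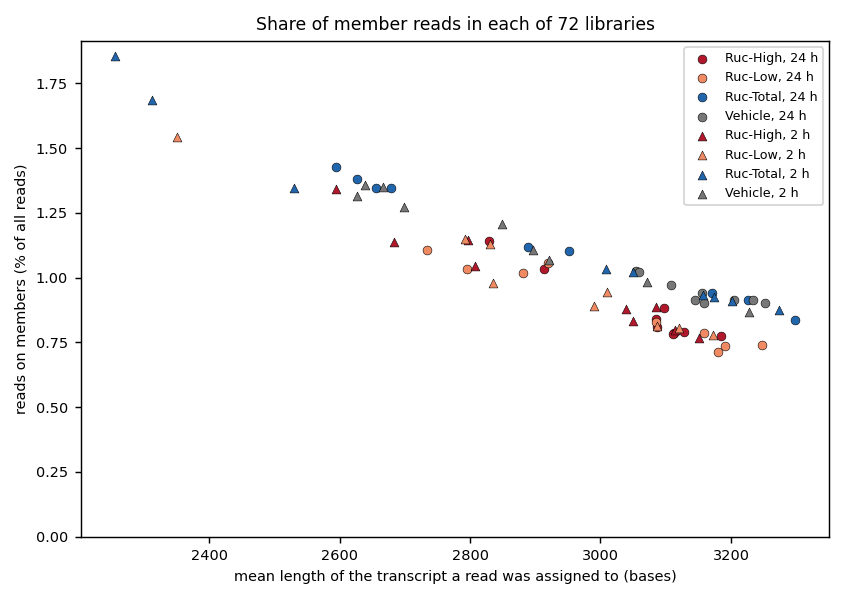
Reads on the members as a percentage of all reads (vertical axis) against the mean length in bases of the transcript a read was assigned to (horizontal axis), 1 point for each of 72 libraries, with circles for 24 h and triangles for 2 h. The points fall along a line (r = -0.931), and between 3000 and 3200 bases the sorted 24 h libraries (red and orange circles) keep at or below 0.883%.

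Protein genes of the mitochondrial genome were higher in sorted cells at 24 h, where the nuclear subunits called were lower. At that time 12 of 13 were higher and 0 lower than in Ruc-Total (4.32% of all genes were higher), with a median log2 fold change of 3.02, and with the block all 13 were higher (10.8% of all genes). MT-CYB, the cytochrome b of complex III, had a log2 fold change of 3.70 ± 0.57 (adjusted p = 0.000994), and MT-CO1, the catalytic subunit of complex IV, 2.77 ± 0.30 (6.5e-05). Their summed level was 34986, 14621 and 25200 CPM in Ruc-High and 39287, 20623 and 30771 CPM in Ruc-Low, against 2966, 2749 and 4358 CPM in Ruc-Total. The summed nuclear members had 8135, 8883 and 7486 CPM in Ruc-High and 7641, 8936 and 8767 CPM in Ruc-Low, against 13236, 13795 and 8749 CPM in Ruc-Total. The mitochondrial sums were apart by a wide margin, whereas the nuclear sums overlapped through replicate 3 of Ruc-Total. Vehicle at 24 h had nuclear sums of 9184, 9653 and 8909 CPM, nearer to the sorted sums than to replicates 1 and 2 of Ruc-Total. At 2 h, 3 of 13 were higher (1.24% of all genes were), MT-ND1 and MT-ND4L (both 1.73) and MT-CO1 (1.56), with a median of 1.42, and 8 were higher with the block (6.61% of all genes).

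In unsorted cells at 24 h, 2 of the 13 were lower in Ruc-Total than in Vehicle, MT-CO3 at -1.68 ± 0.45 (adjusted p = 0.0476) and MT-ATP6 at -1.96 ± 0.51 (0.0403), and 11 were lower with the block. Of all 20131 genes, 232 were lower, and 2175 were lower with the block. The sums were 2966, 2749 and 4358 CPM in Ruc-Total, against 12622, 8290 and 5779 CPM in Vehicle, with no overlap. The libraries were made from polyadenylated RNA.

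**Figure D4:**
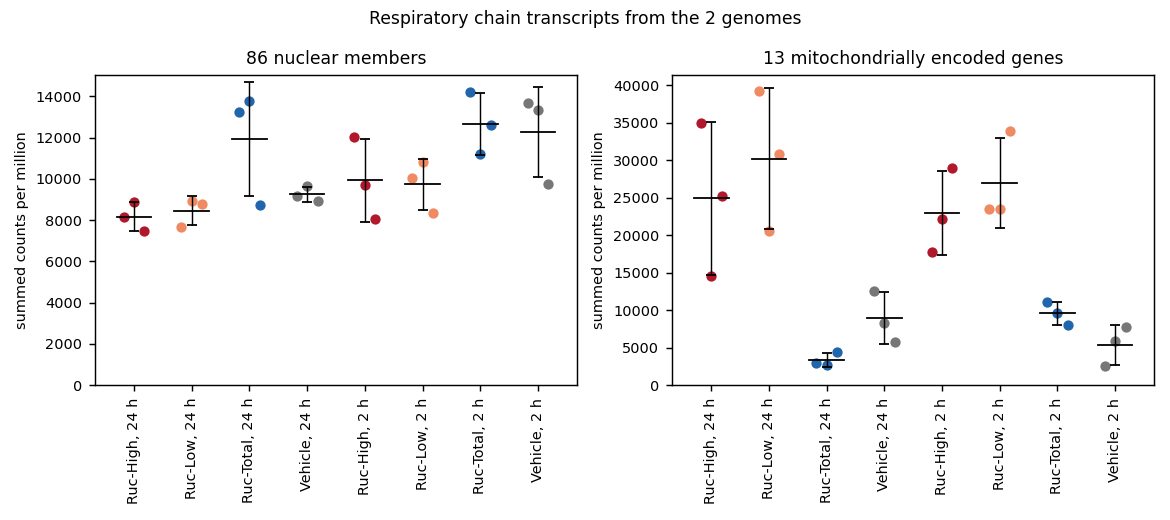
Summed CPM (vertical axes) of the 86 nuclear members (left) and the 13 mitochondrially encoded genes (right) by group, with points for replicates 1 to 3 from left to right and lines for the mean ± SD (n = 3). At 24 h the mitochondrial sums of Ruc-High and Ruc-Low are 14621 or more against at most 4358 in Ruc-Total.

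As among the members, most genes that build the complexes did not pass the test at 24 h. In sorted cells against Ruc-Total, 1 of 14 complex I assembly factors was lower, NDUFAF3 at -0.51 ± 0.10 (adjusted p = 0.00575), which is near the 5.14% of all genes that were lower, and 5 of 31 factors for complexes II to V were, with the largest falls in COA3 (-0.64, 0.0334) and SURF1 (-0.57, 0.0416), both needed for complex IV. Of 5 tested chain genes outside the symbol rule, CYC1 (cytochrome c1 of complex III, -0.51) and ATP5IF1 (the inhibitor of the ATP synthase, -0.55) were lower. None of these lists had a member that was higher. With the block, 7 of the 14 complex I factors and 18 of the 31 other factors were lower, where 13.9% of all genes were. Of the 5 genes outside the symbol rule, 4 were lower with the block. Enzymes of the citric acid cycle and pyruvate dehydrogenase had 5 lower of 19, such as MDH2 (malate dehydrogenase, -0.51) and PDHA1 (-0.43), and coenzyme Q synthesis had 4 lower of 11, with COQ2 at -0.45 and COQ3 at -0.40. With the block, 8 of these 19 and 6 of these 11 were lower. Transcription factors of mitochondrial biogenesis had 0 of 14 changed, with a median of -0.13, and with the block 4 were lower and 1 higher.

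At 2 h, these lists, which leave out the mitochondrially encoded genes, held 0 to 2 calls each in sorted cells. Of all genes, 1.17% were lower and 1.24% higher. CYCS, which encodes cytochrome c, fell by 0.48, UQCC2, an assembly factor of complex III, by 0.46, SUCLG1 of the citric acid cycle and DLD, a subunit it shares with pyruvate dehydrogenase, by 0.42 and 0.35, COQ2 by 0.43, and TFAM, which packages mitochondrial DNA, by 0.31 on the log2 scale. COX19, a copper-related factor of complex IV, was higher at 0.39 (adjusted p = 0.016). In Ruc-Total against Vehicle at 24 h, NDUFAF3 (0.55, 0.0175), SDHAF4 (1.00, 0.041) and SCO2 (0.49, 0.0383) were higher and no assembly factor was lower. Of all 20131 genes, 442 were higher and 232 lower. At 2 h none of the 7 lists, the mitochondrially encoded genes included, had a call. Between Ruc-High and Ruc-Low none of them had a call at either time, with or without the block.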

How the data were processed

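Poly(A) RNA of PEO1 cells was sequenced in 8 groups, as the labels give them. The authors deposited 1 file per library, made by Salmon, with an estimated count and a TPM value per transcript. The submitters' notes also name cutadapt 4.7, DESeq2 1.44.0 and GRCh38, and the Salmon version is not given in the sources used here. The 257369 transcripts of each file were assigned to genes with GENCODE 29 (194437 by transcript and 11530 alternate-locus copies by its gene-name table), and 51402 unmatched transcripts, with 7.11% to 8.96% of a library's reads, were left out of totals and tests. No 2 libraries were identical, and within a replicate chi-square over its degrees of freedom was at least 5.86. Transcript estimates were summed per gene over the 3 libraries of a replicate and rounded to whole numbers.

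The main test was the quasi-likelihood test of edgeR 4.0.16 (R 4.3.3), with all 24 samples fitted together after filterByExpr and TMM scaling, and a Benjamini-Hochberg adjusted p of 0.05 over 20131 genes. Sorted cells were the mean of Ruc-High and Ruc-Low, which come from the same treated population. The main fit treats both gates of a replicate as separate samples. Its SEs and p-values do not account for that shared origin. Errors of fold changes are SEs, and precision is limited by 3 replicates and the totals per library. The test was also run on simulated counts with known changes, drawn independently for each sample. The simulation left out links between samples and differences in transcript length, so it does not bear on them. Replicate numbers were treated as pairing the samples in the fits with a block, because the study's reporting summary states that cell sorting was repeated on separate days, but no source ties the numbers of the RNA libraries to days. Deviations from group means had a median r of 0.287 between same-numbered samples (-0.0632 to 0.607) and of -0.123 between others. Alternatives were the replicate block, DESeq2 1.42.0 and its size factors, other filters, each replicate left out, 72 libraries as samples, only the groups compared, an effective length offset, the mean transcript length as a covariate, limma 3.58.1 on log2(TPM + 1), and, chosen after seeing the data, a fit without the 2 libraries under 25 M reads. For alternatives other than the replicate block, the share of all genes called is not given. Motifs were searched in RefSeq promoters.

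The genes, lists and tests were chosen with earlier results of these data known. Named members are, per contrast, up to 10 called in each direction with the same sign in all replicates, the extremes where none was called, 12 members by role, isoform sets, the 5 highest and 5 lowest by TPM, and up to 2 called genes of each other list per direction. Others (SDHC, SDHD, NDUFA8, ATP5PB, UQCRC2 and members called only with the block among them) were singled out after their values were seen. Values of 1 member that these rules name are not reported here.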

Additional observations from a re-analysis of the deposited data

Results flagged for a closer look

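One Ruc-Low library of 2 h, library 2 of replicate 2, lay far from the other 8 of its group. It had 1.54% (1.544) of its reads on the members, against 0.778% to 1.15% in the others, and a mean transcript length of 2351 bases (2350.7), against 2792 to 3172 bases. It was also the shallowest library. Chance flags about 1 in 20 of such groups, and 48 group ends were examined.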

How the results depend on the processing

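All values here are counts of the 79 members called. Shares of all genes called are given above for the main fit and the replicate block only. The counts under other settings thus do not set the members apart from other genes. With the replicate block, 61 members were called in sorted against unsorted treated cells at 24 h and 51 at 2 h, 27 in Ruc-Total against Vehicle at 24 h, 5 in Vehicle at 24 h against 2 h and 6 for the difference between the drug effects. With DESeq2 the counts were 50 and 28 for the sorted contrasts, 5 for Ruc-Total against Vehicle at 24 h and 2 for the difference between drug effects, and with DESeq2 and the block they were 66, 54, 36 and 20, with 36 in Vehicle over time. With 72 libraries as samples, which ignores that libraries of a replicate belong together, they were 59, 41, 30 and 15, with 25 in Vehicle over time. In libraries of at least 2800 bases with the block the counts were 53, 4, 10 and 34, with 26 in Vehicle over time and 1 in Ruc-Total against Vehicle at 2 h. With the block and the mean transcript length they were 45, 64, 1 and 5. An offset for effective length gave 12 and 3 for sorted cells at 24 h and 2 h, and limma on log2(TPM + 1) gave 13 and 1. At 24 h the stricter filter of 1 CPM in all samples gave 15 for sorted cells, only the groups compared gave 0, and leaving out the libraries under 25 M reads gave 42, with 1 in Ruc-Total against Vehicle. Leaving out 1 replicate gave 0 to 58 for sorted cells at 24 h, 0 to 2 at 2 h, 0 to 29 for Ruc-Total against Vehicle at 24 h and 0 to 22 for the difference between drug effects.

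No named member changed direction past the threshold. Among named members called in the main test, 414 results under the alternatives stayed past the threshold and 226 did not, and of those not called 410 passed under an alternative and 5470 did not. The 17 and 23 members lower in sorted cells kept their sign in every alternative run. The cause of the other changes was not tested. Depth was 17391033 reads or more per library with 3 replicates per group, and changes between Ruc-High and Ruc-Low smaller than the SEs given were not detectable.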
